A study of Mus musculus with 6 samples.

Results

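The epithelial cells of the embryonic mouse liver hold on to one another through a small set of surface proteins and their cytoplasmic partners, and 9 of the genes that encode them are described here: Epcam, the cadherins Cdh1, Cdh2, Cdh6 and Cdh16, and the catenins Ctnna1, Ctnnb1, Ctnnd1 and Jup. The rule that picks them uses gene symbols and no measured value, although it was written with earlier results of these data known, and all 9 were found among the 52550 genes of the deposited table. RNA had been sequenced from cells that express green fluorescent protein under the control of Sox9, a transcription factor of the biliary lineage, purified from embryonic livers at the onset of bile duct lumen formation (E16.5) and when bile starts to flow (E18.5). All 6 libraries, 3 per stage and named replicates A, B and C, came from CD-1 embryos of the Sox9-GFP genotype with no treatment, and each was made from a pool of 15 livers. The sample labels give the stages as embryonic days 16 and 18, the source as bile ducts and the cells as cholangiocytes. Since livers were pooled and cells were gated on GFP, a library averages over embryos and over every cell type in which the transgene was active. No source says that the 3 libraries of a stage were independent preparations, so p-values measure the spread between these libraries, which may in part be technical.

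Cadherins are calcium-dependent adhesion molecules that bind a cadherin of the neighbouring cell. Inside the cell, beta-catenin or its relative plakoglobin (Jup) binds the cadherin tail, alpha-catenin (Ctnna1) joins this complex to the actin cytoskeleton, and the p120 catenin (Ctnnd1) stabilises the cadherin at the membrane. Beta-catenin also acts in the nucleus as the effector of Wnt signalling, and plakoglobin is a component of desmosomes too. E-cadherin (Cdh1) is the cadherin of most epithelia, whereas hepatocytes carry both E-cadherin and N-cadherin (Cdh2). EpCAM is a surface glycoprotein of many epithelia that marks bile duct cells and is low in mature hepatocytes.

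Promoter sequences are shown for Epcam and Cdh6, which had the largest increases among the genes matched to a promoter, and for Jup, which had the smallest, so that their letters can be read beside the values. Of the 9 genes, 7 (all but Cdh2 and Ctnna1) were looked up in the RefSeq promoter table used here. Of these, 5 (Ctnnd1, Ctnnb1, Jup, Cdh6 and Epcam) were matched. Each sequence is the 250 bases before the RefSeq start on GRCm38.p6, written 5′ to 3′ on the strand of the gene: chr17:87635729-87635978 on the plus strand for Epcam, chr15:13173676-13173925 on the minus strand for Cdh6 and chr11:100397791-100398040 on the minus strand for Jup. Capitals mark every match, on either strand, to 6 motifs: the E-box CAGGTG, which repressors of E-cadherin bind, the Grainyhead motif AACNNGTT, the GC box GGGCGG, the CCAAT box CCAAT, the TATA box TATAAA and the TCF motif CTTTGA.
Epcam: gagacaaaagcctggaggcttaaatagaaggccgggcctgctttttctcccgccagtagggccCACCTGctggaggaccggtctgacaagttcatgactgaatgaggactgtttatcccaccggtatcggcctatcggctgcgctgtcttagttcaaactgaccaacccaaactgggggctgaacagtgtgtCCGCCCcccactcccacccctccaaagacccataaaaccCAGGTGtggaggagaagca
Cdh6: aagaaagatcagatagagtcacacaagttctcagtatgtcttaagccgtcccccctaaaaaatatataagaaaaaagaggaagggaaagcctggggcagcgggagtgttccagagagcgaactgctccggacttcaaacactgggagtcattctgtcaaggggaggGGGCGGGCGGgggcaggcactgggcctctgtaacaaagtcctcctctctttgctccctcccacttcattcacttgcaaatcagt
Jup: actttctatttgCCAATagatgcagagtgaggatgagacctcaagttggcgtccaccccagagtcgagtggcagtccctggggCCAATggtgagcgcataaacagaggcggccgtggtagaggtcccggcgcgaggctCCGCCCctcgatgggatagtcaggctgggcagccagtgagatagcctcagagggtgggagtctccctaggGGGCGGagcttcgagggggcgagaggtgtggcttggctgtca
Counting the base before the start as -1, Epcam had an E-box whose first base was at -187 and another at -19, with a GC box at -58. Cdh6 had a pair of overlapping GC boxes, at -84 and -80, and Jup had GC boxes at -112 and -42 and CCAAT boxes at -238 and -167. Among 32851 promoters of this length, 17.2% held the E-box, 32.7% the GC box and 33.8% the CCAAT box. No match to the Grainyhead motif, held by 3.64% of promoters, the TATA box, held by 12.4%, or the TCF motif, held by 13.8%, was found in these 3 sequences. Matches of letters are descriptions, not binding sites.

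The libraries held between 13093937 reads (E18.5 replicate C) and 26206374 reads (E16.5 replicate A), recovered from the deposited TPM, a level that takes account of the length of a gene and of the size of its library. The labelled cell type was checked against 12 cholangiocyte markers, all of which were above 0 in every library. At E16.5 their summed level was 2193 TPM in replicate A, 2746 TPM in replicate B and 874 TPM in replicate C, and at E18.5 it lay between 8427 and 14399 TPM. The summed level of 12 hepatoblast markers, Alb and Afp among them, was higher than that in every library, with 181377 to 230603 TPM at the earlier stage and 42083 to 103931 TPM at the later one. Most of each sum came from 1 gene. Spp1 alone gave 1278, 1767 and 469 TPM in the E16.5 libraries (A, B, C) and 6629 to 12121 TPM at E18.5. Alb alone gave 117854 to 148077 TPM at E16.5 and 30024 to 70151 TPM at E18.5. E16.5 replicate C stood apart, with the lowest cholangiocyte sum and the highest hepatoblast and megakaryocyte sums, and E16.5 replicate A stood apart by a pancreatic acinar sum of 2549 TPM, against 16.9 to 231 TPM in the other 5 libraries. Results are therefore also given without single libraries, and in these bulk samples fewer cells of a type and less RNA per cell cannot be told apart.

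All 9 genes were expressed at both stages, and each had a higher level in every E18.5 library than in any E16.5 library. Of all 22452 genes tested, those whose mean reached 1 TPM, 45.0% showed such a complete separation in this direction. In the limma fit on log2(TPM + 1), all 9 passed an adjusted p (Benjamini-Hochberg over all genes tested) of 0.05 in the upward direction, where 26.0% of all genes did so and 5.22% were lower. The median log2 fold change of the 9 genes was 0.94, beside a median of 0.42 over all genes tested, so that the typical gene of the table was also higher at E18.5. Changes ranged from 0.53 for Jup to 1.78 for Epcam. The split depended on the scaling: of all genes called, 83.3% were higher in the TPM as deposited and 38.0% after median-of-ratios scaling. After that scaling 2 of the 9 genes passed, beside 6.50% of all genes tested that were higher. Leaving out single libraries left between 0 and 8 of the 9, beside 4.63% to 20.8% of all genes tested. A test within 1 gene, the exact two-sided permutation test on TPM, gave p = 0.1 for each of the 9, which is the smallest value that 3 libraries against 3 allow.

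**Figure D1:**
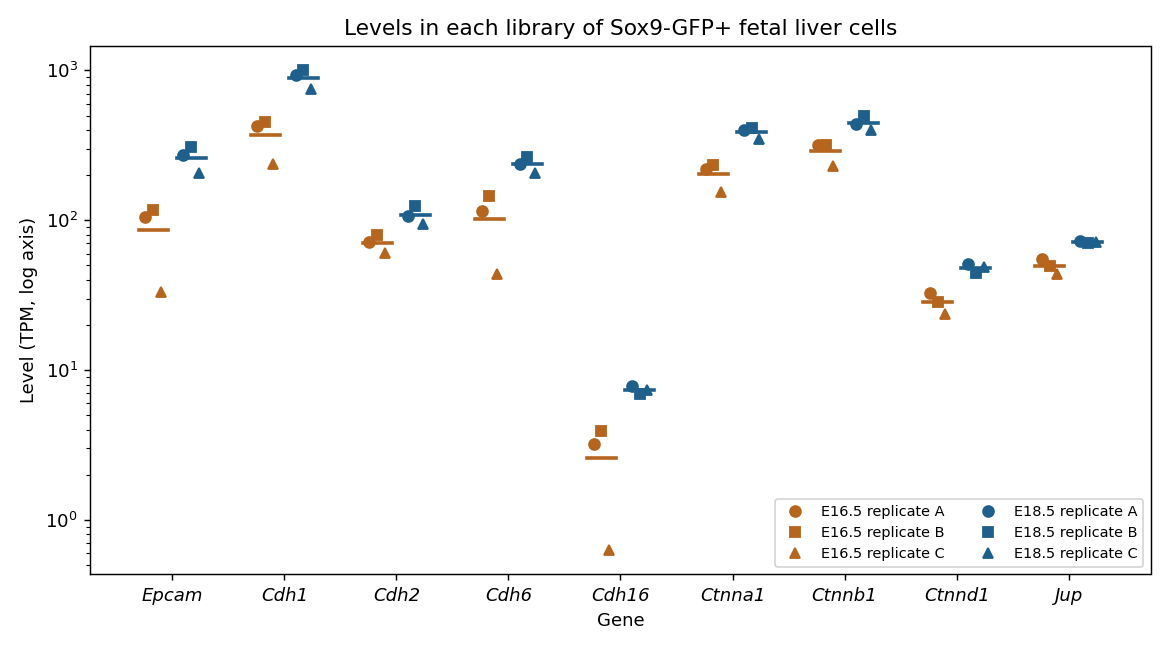
Level of each of the 9 genes in each library (TPM, log axis), with E16.5 in brown and E18.5 in blue, a marker shape for each replicate and a bar at the mean of the stage. In every gene the 3 E18.5 libraries lie above the 3 E16.5 libraries, and the triangle of E16.5 replicate C is the lowest point.

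Epcam showed the largest change of the 9. In the order A, B, C the E16.5 libraries held 105, 118 and 33.2 TPM, and the E18.5 libraries 273, 307 and 206 TPM. The stages did not overlap, and replicate C at E16.5 lay far below its companions, at 29.8% of their mean. The mean rose from 85.5 ± 45.6 TPM to 262 ± 51.7 TPM (SD, n = 3 per stage), a log2 fold change of 1.78 ± 0.46 (SE, limma, adjusted p = 0.0288). This exceeded the log2 fold change of 98.1% of all genes tested. Replicate C rested on 541 reads, whose exact 95% interval (Clopper-Pearson, counting error only) spans 30.5 to 36.2 TPM and stays under replicates A and B. The gene lies at chr17:87635979-87651129 on the plus strand (GRCm38).

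Cdh1, which encodes E-cadherin, was the most abundant of the 9 genes at both stages. It measured 427, 449.5 and 239 TPM at E16.5, against 925, 1007 and 755 at E18.5. The stages did not overlap, and replicate C was again the lowest library at E16.5. The log2 fold change was 1.31 ± 0.26 (SE, limma, adjusted p = 0.0156). Per unit length its mean level exceeded that of 99.3% of 21819 protein-coding genes at E16.5 and of 99.8% at E18.5. Cdh1 lies at chr8:106603351-106670246 on the plus strand.

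Cdh2, which encodes N-cadherin, had the smallest change of the 4 cadherins. It measured 71.4, 80.0 and 60.3 TPM at E16.5, against 107, 124 and 94.5 at E18.5. The stages did not overlap, although the lowest E18.5 library lay near the highest E16.5 library. The change on the log2 scale was 0.62 ± 0.15 (SE, limma, adjusted p = 0.0260), larger than that of 66.3% of all genes tested. Cdh2 lies at chr18:16588877-16809246 on the minus strand.

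Cdh6, a cadherin first described in kidney, resembled Epcam in its wide spread at E16.5. It measured 115, 146 and 44.0 TPM at E16.5, against 238, 265 and 206 at E18.5. Replicate C at E16.5 was at 33.7% of the mean of replicates A and B, a gap wider than that of Cdh1, for which the value was 54.4%. The log2 fold change was 1.37 ± 0.41 (SE, limma, adjusted p = 0.0432). Its reads could not be recovered, since more than 1 exon length gave whole reads, so no counting interval is given. Cdh6 lies at chr15:13028701-13173675 on the minus strand.

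Cdh16, the kidney-specific or Ksp-cadherin, was the least abundant of the 9 at both stages. It measured 3.20, 3.92 and 0.628 TPM at E16.5, against 7.86, 6.97 and 7.34 at E18.5. The value of replicate C at E16.5 rested on 19 reads (exact 95% interval 0.378 to 0.981 TPM) and was 17.6% of the mean of replicates A and B. The E18.5 libraries differed by a factor of 1.13 from lowest to highest, against 6.24 at E16.5. On the log2 scale the change was 1.38 ± 0.42 (SE, limma, adjusted p = 0.0455). Cdh16 lies at chr8:104601911-104624396 on the minus strand.

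Among the catenins, Ctnna1 (alpha-E-catenin) changed most. It measured 221, 234 and 154 TPM at E16.5, against 398, 413 and 348 at E18.5. The lowest E18.5 library lay well above the highest E16.5 library. Its log2 fold change was 0.94 ± 0.18 (SE, limma, adjusted p = 0.0144), the smallest adjusted p of the 9 genes. Ctnna1 lies at chr18:35118859-35254779 on the plus strand and shares 1.48% of its exon sequence with Lrrtm2 on the opposite strand.

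Ctnnb1, which encodes beta-catenin, was the second most abundant of the 9 at both stages in the TPM as deposited. It measured 317, 319 and 231 TPM at E16.5, against 441, 494 and 399.8 at E18.5. Replicate C was the lowest library of each stage. Its log2 fold change was 0.63 ± 0.16 (SE, limma, adjusted p = 0.0295). Ctnnb1 lies at chr9:120929216-120960507 on the plus strand. Of its exon sequence, 14.6% overlaps Ulk4 on the opposite strand, and the strand setting of the counting was not stated, so reads of the overlap may belong to either gene.

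Ctnnd1, which encodes the p120 catenin, was lower than the other catenins, with 32.9, 28.6 and 23.7 TPM at E16.5, against 51.3, 44.7 and 49.0 at E18.5. The lowest E18.5 library was replicate B, unlike for Epcam, Cdh1, Cdh2, Cdh6, Ctnna1 and Ctnnb1, where it was replicate C. The log2 fold change was 0.76 ± 0.15 (SE, limma, adjusted p = 0.0152). The level itself is uncertain, since 61.2% of the exon sequence of Ctnnd1 is shared with Gm28635, an overlapping gene model on the same strand that is listed at 0 in every library, and reads in the shared part may not have been assigned to either gene. Ctnnd1 lies at chr2:84600071-84650765 on the minus strand.

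Jup, which encodes plakoglobin, showed the smallest change and the tightest replicates. It measured 55.5, 49.2 and 43.6 TPM at E16.5, against 72.6, 70.6 and 71.4 at E18.5. At E18.5 the libraries differed by a factor of 1.03, against 1.27 at E16.5. The log2 fold change was 0.53 ± 0.12 (SE, limma, adjusted p = 0.0214), larger than that of 59.5% of all genes tested. Jup lies at chr11:100368958-100397763 on the minus strand.

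Ordered by their mean level per length, the genes at E16.5 were Cdh1, Ctnnb1, Ctnna1, Cdh6, Epcam, Cdh2, Jup, Ctnnd1 and Cdh16. At E18.5 the order was the same except that Epcam stood before Cdh6. The place of Ctnnd1 is uncertain at both stages, since reads in the exon sequence it shares with Gm28635 may not have been counted. Some neighbours did not differ beyond their spread: the ranges of Cdh1 and Ctnnb1, of Ctnnb1 and Ctnna1, of Cdh6 and Epcam and of Epcam and Cdh2 overlapped at E16.5, and those of Ctnnb1 and Ctnna1 and of Epcam and Cdh6 overlapped at E18.5. Within each library, however, Cdh1 was above Ctnnb1 and Ctnnb1 above Ctnna1 in 3 of 3 libraries at both stages in the TPM as deposited. At E18.5 Ctnna1 held 0.903, 0.835 and 0.870 of the level of Ctnnb1 (A, B, C), with an exon length of 7396 bp. In GENCODE vM21 the exon length of Ctnna1 is 6425 bp, which would give it a higher level. The order of Ctnnb1 and Ctnna1 at E18.5 is therefore uncertain. Epcam was above Cdh6 in 2 of 3 libraries at E18.5 and in none at E16.5.

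The size of the change depended on how the libraries were scaled. Median-of-ratios scaling divides each library by the median ratio of its genes to their geometric means, which sets the change of the typical gene near 0 (median 0.0040 over all genes tested, against 0.42 in the TPM as deposited). All 9 genes kept a positive log2 fold change on this scale, with a median of 0.48. Those of Cdh1 (0.85, limma, adjusted p = 0.0366) and Ctnna1 (0.48, adjusted p = 0.0428) passed the threshold, 2 of 9 genes beside 6.50% of all genes tested that were higher and 10.6% that were lower on this scale. Epcam had the largest value, 1.32 ± 0.41 (SE), with an adjusted p of 0.0729. The values of Cdh16 (1.04) and Cdh6 (0.90) were also larger than that of Cdh1, with larger errors, and did not pass. Jup, at 0.07, and Cdh2, at 0.15, lay close to the median of all genes.

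**Figure D2:**
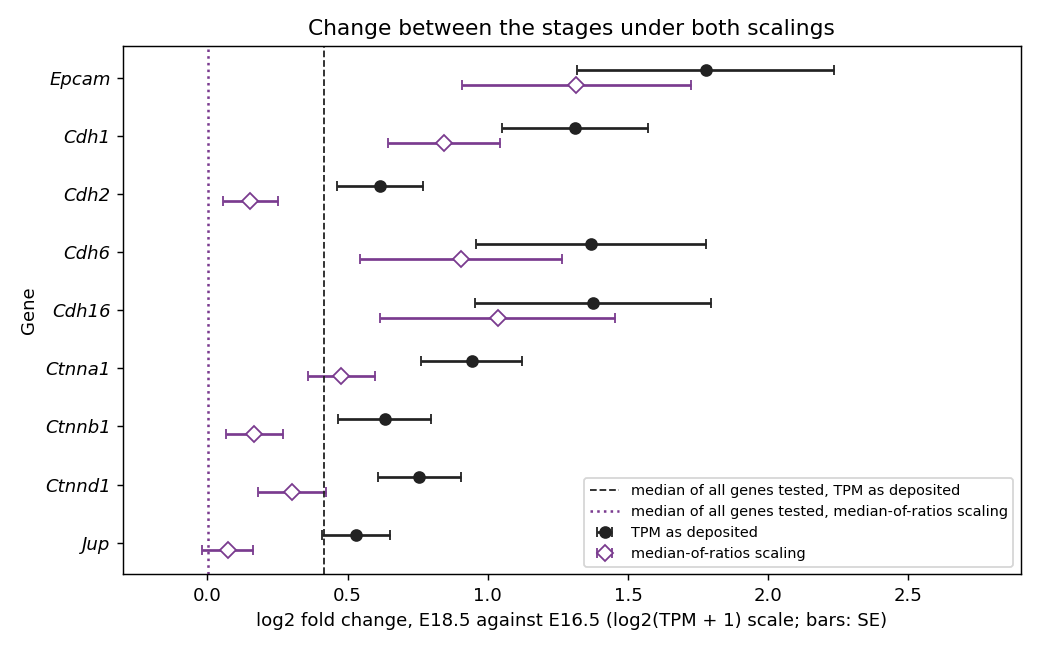
Log2 fold change of each gene between the stages with its SE (horizontal axis, log2(TPM + 1) scale), from the TPM as deposited (filled circles) and after median-of-ratios scaling (open diamonds). The dashed and dotted lines mark the median of all genes tested, 0.42 and 0.0040, and all 9 genes lie above the line of their own scaling, Jup by the least.

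Several of the calls were lost when a single library was left out. Without E18.5 replicate A, the adjusted p of limma passed 0.05 for 0 of the 9 genes, while their unadjusted p was under 0.05 for 9 of 9 and 1472 genes were called in the whole table, against 7000 with all libraries. Without E18.5 replicate B, 3 genes passed (Cdh1, Ctnna1 and Ctnnd1), without E16.5 replicate A 5 passed, and without any other library between 7 and 8 passed. Leaving out E16.5 replicate C lowered every log2 fold change, to 1.21 for Epcam, 0.85 for Cdh6, 0.88 for Cdh16 and 1.02 for Cdh1, and ended the calls of Cdh2 (0.51, limma adjusted p = 0.0603) and Ctnnb1 (0.48, adjusted p = 0.0572). Of the 6 libraries, E18.5 replicate A was the only one whose removal ended the calls of Cdh1, Ctnna1 and Ctnnd1. No gene changed its sign without any library.

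E16.5 replicate C was the lowest library for all 9 genes, by unequal amounts. Relative to the mean of replicates A and B it held 17.6% of Cdh16, 29.8% of Epcam, 33.7% of Cdh6 and 54.4% of Cdh1. The catenins and Cdh2 were closer to their companions, at 67.7% for Ctnna1, 72.7% for Ctnnb1, 77.2% for Ctnnd1, 79.7% for Cdh2 and 83.2% for Jup. The cholangiocyte sum of this library, 874 TPM against 2193 and 2746 TPM, was low as well, and its part in these values was not tested.

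Ratios between genes of 1 library do not depend on the scaling between libraries, and 5 were compared. They are ratios of RNA levels, and protein was not measured. Cdh1 RNA exceeded Cdh2 RNA 5.99, 5.62 and 3.95 times in the E16.5 libraries (in the order A, B, C). In the E18.5 libraries it did so 8.61, 8.13 and 7.99 times. The stages did not overlap, and the mean log2 ratio was 2.35 ± 0.32 at E16.5 and 3.04 ± 0.06 at E18.5 (SD, n = 3), a difference of 0.69 (exact two-sided permutation p = 0.1, adjusted p = 0.167 over the 5 ratios). Epcam was present at 0.247, 0.262 and 0.139 of the level of Cdh1 at E16.5 and at 0.295, 0.305 and 0.272 at E18.5. This was a difference of 0.48 on the log2 scale with no overlap (exact permutation p = 0.1, adjusted p = 0.167), which fell to 0.19 without E16.5 replicate C.

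The proportion of Ctnna1 RNA to Ctnnb1 RNA was higher in every E18.5 library than in any E16.5 library. The ratio of Ctnna1 to Ctnnb1 was 0.699, 0.734 and 0.668 at E16.5 and 0.903, 0.835 and 0.870 at E18.5. The stages were separate, with a log2 difference of 0.31 (exact permutation p = 0.1, adjusted p = 0.167) that stayed between 0.28 and 0.35 without any single library. The RNA ratios of Jup and of Ctnnd1 to Ctnnb1 showed no such separation. The log2 ratio of Jup to Ctnnb1 was -2.54 ± 0.15 at E16.5 and -2.63 ± 0.16 at E18.5 (SD, n = 3, exact permutation p = 0.6, adjusted p = 0.6). That of Ctnnd1 to Ctnnb1 was -3.34 ± 0.12 and -3.20 ± 0.24 (exact permutation p = 0.4, adjusted p = 0.5), and in both cases the stages overlapped. The size of the Ctnnd1 ratio is uncertain, because the level of Ctnnd1 is. With p at its floor of 0.1, none of the 5 ratios could pass 0.05 in this design.

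**Figure D3:**
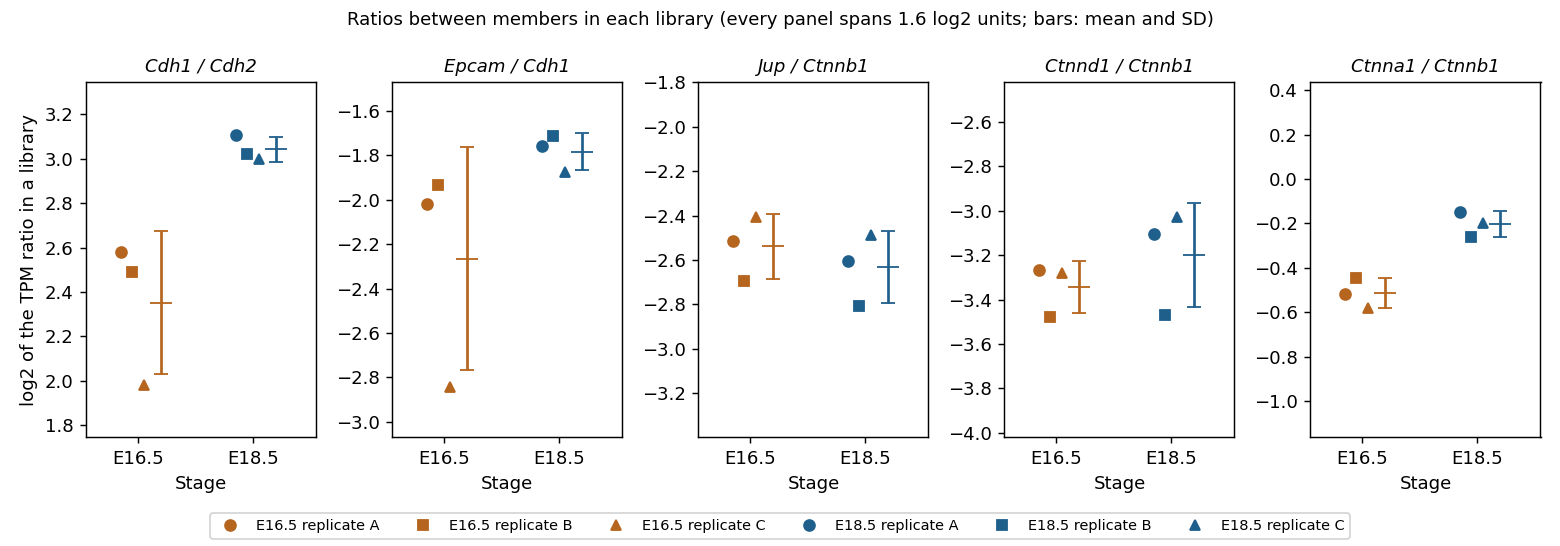
Log2 of the TPM ratio between a pair of the genes in each library (points, with replicates A, B and C as circle, square and triangle), with the mean and SD of each stage beside them. Each panel spans the same range on its own vertical axis, and Cdh1 to Cdh2, Epcam to Cdh1 and Ctnna1 to Ctnnb1 do not overlap between the stages, whereas Jup to Ctnnb1 and Ctnnd1 to Ctnnb1 do.

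The 4 cadherins summed to 344 to 680 TPM at E16.5, against 1063 to 1403 at E18.5. Cdh1 gave most of this sum in every library, 69.2%, 66.2% and 69.4% at E16.5 and 72.3%, 71.8% and 71.0% at E18.5. The share of Cdh2 was 11.6%, 11.8% and 17.6% at E16.5 and 8.40%, 8.83% and 8.88% at E18.5, so its share was smaller in each E18.5 library although its level was higher. Cdh6 held 18.7%, 21.5% and 12.8% at E16.5 and 18.6%, 18.9% and 19.4% at E18.5, and these stages overlapped. Cdh16 held under 1% throughout. The 4 catenins summed to 452 to 631 TPM and to 868 to 1022 TPM, which at E16.5 was close to the cadherin sum in replicates A and B and above it in replicate C, and at E18.5 was below it in all libraries. These catenin sums include Ctnnd1, whose level is uncertain.

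The RNA levels of Epcam, Cdh1 and Cdh2 were also set beside the biliary transcripts of the same library, as log2 TPM of the gene minus the mean log2(TPM + 1) of the 12 cholangiocyte markers. For Epcam this value was 0.46, 0.55 and 0.14 at E16.5 and 0.47, 0.60 and 0.32 at E18.5. The stages overlapped, and the difference was 0.07 (exact permutation p = 0.6, adjusted p = 0.6 over 3 genes) and -0.05 without E16.5 replicate C. For Cdh1 the value was 2.48, 2.49 and 2.98 at E16.5 and 2.23, 2.31 and 2.19 at E18.5, with no overlap and a difference of -0.41 (exact permutation p = 0.1, adjusted p = 0.15), which was -0.24 without E16.5 replicate C. For Cdh2 it was -0.10, -0.0031 and 0.9999 at E16.5 and -0.88, -0.71 and -0.81 at E18.5, a difference of -1.10 (exact permutation p = 0.1, adjusted p = 0.15), and -0.75 without E16.5 replicate C. The mean of the 12 markers includes Spp1 and Sctr, whose log2 fold changes of 3.19 and 2.96 lay far above the list median of 1.57. These genes make the differences of all 3 genes more negative. Whether the stages of Cdh1 stay apart without Spp1 and Sctr in the mean was not tested.

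The markers themselves were counted in the fit across all genes, where 26.0% of the genes tested rose and 5.22% fell. Of the 12 cholangiocyte markers, 10 rose and 2 did not pass (median log2 fold change 1.57, and 1.13 after median-of-ratios scaling, where 6 rose). Spp1 (osteopontin), Sctr (the secretin receptor), Krt19 and Pkhd1 changed most, by 3.19, 2.96, 1.94 and 1.69 on the log2 scale. Of the 12 hepatoblast markers 8 fell, with a median of -1.35, and Afp (alpha-fetoprotein) fell by 2.904 and Dlk1 by 2.17 on the log2 scale. All 10 megakaryocyte markers fell (summed level 3489 to 10036 TPM at E16.5, against 101 to 801 at E18.5), and all 7 mesothelial markers tested rose (sums of 15.03 to 33.7 TPM and 80.9 to 148 TPM). These lists moved between the same stages as the 9 genes, and their part in the changes of the 9 genes was not tested.

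The remaining marker lists were smaller in level or mixed. Of 10 endothelial markers 2 rose, and of 11 mesenchyme markers 3 rose, with sums of 125 to 196 TPM and 176 to 343 TPM at E16.5, against 123 to 218 TPM and 328 to 825 at E18.5, and both counts lay near the 26.0% of all genes that rose. Of 9 leukocyte markers 3 rose, of 10 erythroid markers 1 (Epor) fell, and of 7 gut and gallbladder markers 2 (Fabp2 and Tff3) fell, beside 5.22% of all genes that fell. Of 10 pancreatic acinar markers 2 fell (Ctrb1 and Cpa1), and none of 7 pancreatic endocrine markers passed in limma, with 0 at an unadjusted p under 0.05. Cdh5 (VE-cadherin of endothelium, 16.2 ± 6.29 TPM at E16.5, against 31.5 ± 14.6 at E18.5, adjusted p = 0.141) and Cdh11 (of mesenchyme, 2.07 ± 1.29 and 6.10 ± 2.38 TPM, adjusted p = 0.0538) were picked out after their values were seen, overlapped between the stages and did not pass in limma.

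Other genes of the cadherin superfamily were counted from a list of 35, of which 20 reached a mean of 1 TPM. Of these, 8 rose, 1 fell and 11 did not pass (median 0.66, and 0.22 after median-of-ratios scaling, where 1 rose and 3 fell). Over all genes 26.0% rose and 5.22% fell as deposited, and 6.50% rose and 10.6% fell after that scaling, so that the counts of the list after scaling were near those shares. The atypical cadherins Fat1 and Fat4 and P-cadherin (Cdh3) were the largest rises. Cdh3 measured 26.4, 30.8 and 11.4 TPM at E16.5, against 64.2, 60.3 and 56.4 at E18.5, with the stages apart and replicate C lowest, as for Epcam (log2 fold change 1.47 ± 0.33, SE, limma adjusted p = 0.0213). Fat1 rose from 94.9 ± 29.8 to 231 ± 21.9 TPM (SD, n = 3). The fall was that of Cdhr2, a protocadherin of microvilli, which measured 88.3, 79.2 and 95.2 TPM at E16.5, against 8.36, 7.20 and 16.46 at E18.5. It fell by 3.002 on the log2 scale (SE 0.28, limma adjusted p = 0.0060), and replicate C was the highest E16.5 library for it, as for the hepatoblast sum, whose part was not tested.

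All 20 genes of a list of further catenins and proteins that link cadherins to the cytoskeleton were measured, and 10 rose, 1 fell and 9 did not pass (median 0.61, and 0.19 after median-of-ratios scaling, where 3 rose and 2 fell, beside 6.50% and 10.6% of all genes). Arvcf, a relative of the p120 catenin, rose from 26.4 ± 6.74 to 61.1 ± 6.54 TPM, and Nectin2, an adhesion molecule of the same junctions, rose from 50.6 ± 16.9 to 110.3 ± 2.53 TPM (SD, n = 3). Iqgap1, a scaffold protein that binds actin and beta-catenin, rose by 1.002 on the log2 scale. Vinculin (Vcl), which binds alpha-catenin under tension, was the gene that fell. It measured 245, 156 and 353 TPM at E16.5, against 56.1, 78.1 and 73.4 at E18.5, a log2 fold change of -1.78 ± 0.29 (SE, limma adjusted p = 0.0113). Its highest library was E16.5 replicate C and its lowest E16.5 library was replicate B, as for the megakaryocyte sum (10036 and 3489 TPM), whose part in this fall was not tested.

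Desmosomal genes showed a median close to that of the 9 genes. Of 8 measured, 5 rose and 3 did not pass (median 1.02, and 0.56 after median-of-ratios scaling, where 3 rose), beside 26.0% of all genes that rose as deposited and 6.50% after scaling. Desmoplakin (Dsp), which links desmosomes to keratins, measured 171, 200.2 and 121 TPM at E16.5, against 346, 380.2 and 297 at E18.5, a log2 fold change of 1.08 ± 0.20 (SE, limma adjusted p = 0.0141). Envoplakin (Evpl), periplakin (Ppl) and plakophilin 3 (Pkp3) rose by 1.58, 1.30 and 1.30 on the log2 scale from lower levels. Pkp2, picked out after its values were seen, measured 38.1 ± 2.02 TPM and 38.2 ± 2.92 TPM (SD, n = 3) and did not pass.

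For EpCAM, 12 genes were counted that were listed as its partners or as proteases and protease inhibitors. Of these, 5 rose, 2 fell and 5 did not pass, and the median of 0.40 turned to -0.06 after median-of-ratios scaling. On that scale none rose and 2 fell, and 4 were higher and 3 lower at an unadjusted limma p under 0.05. The median as deposited was close to the 0.42 of all genes tested, of which 26.0% rose and 5.22% fell as deposited and 6.50% rose and 10.6% fell after scaling. The protease matriptase (St14), which cleaves EpCAM, measured 23.2, 22.7 and 5.24 TPM at E16.5, against 55.2, 64.2 and 50.1 at E18.5. Its log2 fold change was 1.90 ± 0.50 (SE, limma adjusted p = 0.0308), and replicate C at E16.5 was again far below its companions. The matriptase inhibitors Spint1 and Spint2 rose by 1.52 and 0.98 on the log2 scale. Claudin 7 (Cldn7), which binds EpCAM, rose from 52.1 ± 21.5 to 123 ± 19.5 TPM (SD, n = 3).

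The list of known repressors of Cdh1 was mixed. Of 5 measured, 2 rose (Tcf3 and Tcf4, from 93.9 ± 23.7 to 158 ± 23.0 TPM and from 7.17 ± 0.605 to 13.5 ± 0.780 TPM) and 3 did not pass, with a median of 0.24 that turned to -0.12 after median-of-ratios scaling. Over all genes tested 26.0% rose and the median was 0.42, so that 2 of 5 is not read as a result about the list. After scaling, none of the 5 passed in limma, with 1 higher and 1 lower at an unadjusted p under 0.05. Zeb2, picked out after its values were seen, measured 27.9 ± 10.9 TPM at E16.5, against 12.7 ± 5.25 at E18.5 (SD, n = 3, limma adjusted p = 0.0706).

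A list made mostly of genes of the beta-catenin destruction complex and of TCF-dependent transcription held 18 measured genes. Here 10 rose and 8 did not pass, with a median of 0.57, near the 0.63 of Ctnnb1 itself, beside 26.0% of all genes that rose and a median of 0.42 over all genes tested. The largest rises, of Tcf7l2, Bcl9, Pygo2 and Axin1, lay between 0.70 and 0.83 on the log2 scale. After median-of-ratios scaling the median was 0.11 and none of the 18 passed in limma, with 3 higher and 1 lower at an unadjusted p under 0.05.

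**Figure D4:**
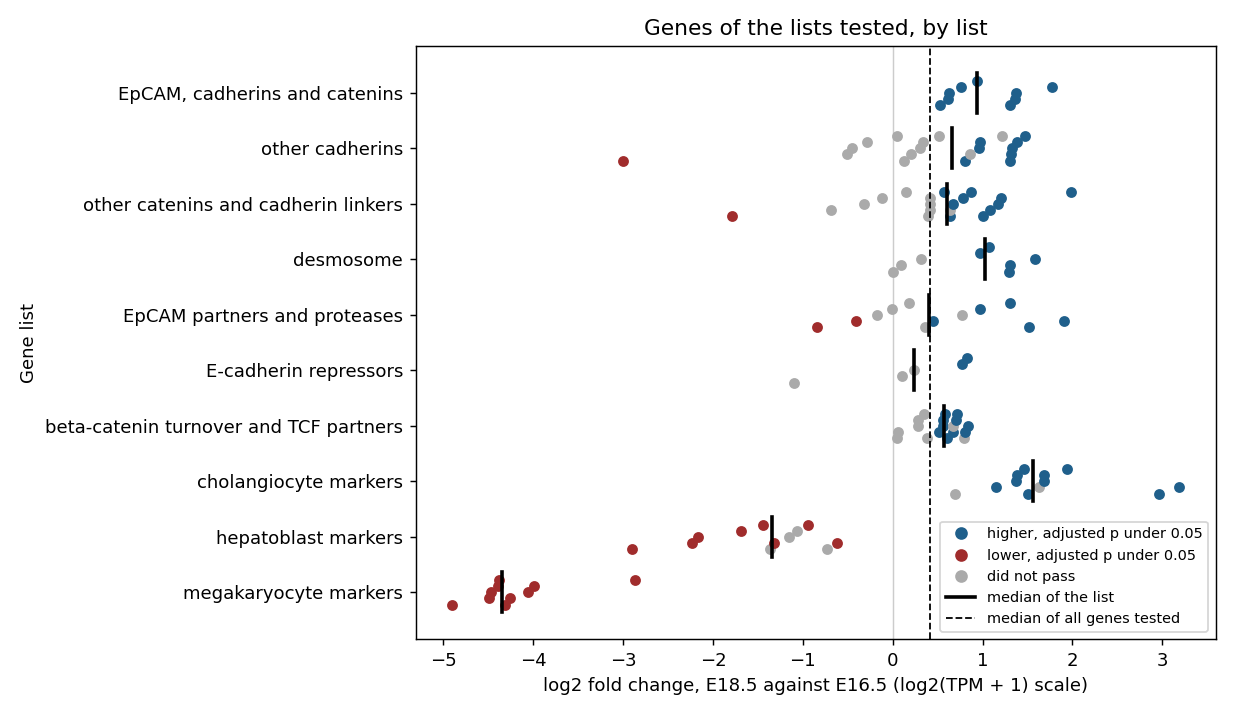
Log2 fold change between the stages (horizontal axis, log2(TPM + 1) scale) of every gene tested in the 9 genes described, in 6 lists of junction and signalling genes and in 3 marker lists, with the genes that passed in blue (higher) or red (lower) and the others in grey. The thick bar is the median of each list and the dashed line the median of all genes tested, 0.42; the 9 genes all lie to its right, with a median of 0.94, and the cholangiocyte markers lie further right at 1.57.

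Among 9592 protein-coding genes whose mean reached 10 TPM, those with the profile over the 6 libraries most like that of a given gene were sought by the root-mean-square difference of log2(TPM + 1) after the mean of each gene was subtracted. For Epcam these were Tinagl1 (difference 0.066), Misp (0.097) and Serinc2 (0.10). For Cdh1 they were Dab1 (0.033), Enah (0.034) and Ift88 (0.040). The values were smaller for Ctnnb1, with Ptpn23 (0.016), Mta1 (0.022) and Yeats2 (0.023), and for Cdh2, with B230219D22Rik (0.022), Xrcc1 (0.022) and Dmd (0.023). These are descriptions over the same 6 libraries, which differ in depth and stage, and more genes lie near a profile that changes little.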

How the data were processed

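Total RNA from Sox9-GFP+ cells, depleted of haematopoietic cells and sorted by the authors, was sequenced with a stranded kit. Per the labels and the study's methods, the authors checked reads with FastQC 0.11.7, used Trimmomatic for trimming and HISAT2 2.1.0 for alignment to GRCm38, counted reads per gene with HTSeq-count 0.5.4p3 on GENCODE vM15 and deposited TPM. Every column summed to 1000000, and no column was left out. Names, places and exon lengths came from GENCODE vM21, which held 52403 of the 52550 identifiers with the version ignored.

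The reads behind a TPM were recovered from its exon length and the value of 1 read in its library. All of 180057 values checked (100%) were whole within 0.01. For Epcam and Ctnna1 the exon length was the one that gave whole reads in all libraries (2040 and 7396 bp, against 2195 and 6425 bp in vM21). Depths were 13093937 to 26206374 reads, and intervals are Clopper-Pearson at 95%. A count of 3 reads, the limit that a count of 0 allows, corresponds to 0.362 TPM or less for every gene of the 9 with reads.

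The stage comparison used log2(TPM + 1) of the 22452 genes whose mean reached 1 TPM, fitted by limma 3.58.1 under R 4.3.3 (lmFit, then eBayes with a trend), with Benjamini-Hochberg adjustment. A fold change on this scale understates that of low genes. The fit was tested on simulated data of 21058 genes, where it recovered 100% of 4-fold and 39% of 2-fold changes. The simulation gave every gene the same relative spread beyond counting error, and changed only genes within a set range of reads. Genes such as Epcam, Cdh6 and Cdh16 spread widely at E16.5, so these rates check the code and do not give the power for such genes. Permutation tests used Python 3.11.15 with scipy 1.17.1. Alternatives were a pseudocount of 0.1, no filter, a minimum mean of 5 TPM, median-of-ratios and quantile scaling, rescaling after removal of small structural RNA, haemoglobin and mitochondrial genes, robust eBayes or eBayes lacking the trend, genes of at least 200 bp, the replicate letter as a block, limma voom on recovered reads, and leaving out each library. Replicate letters were not taken as pairs, since same-letter libraries did not all deviate together.

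The 9 genes (picked by symbol), the lists and the tests were chosen with earlier results of these data known. Of each further list, up to 4 genes were named by rule: those past the threshold with the largest change whose mean reached 5 TPM in either stage. Genes named beyond this are said to be so. A few genes were left out of these lists and are not reported here. Libraries of a stage differed beyond sampling noise (chi-square per degree of freedom 15.1 or more), so none was a copy of another.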

Additional observations from a re-analysis of the deposited data

How the results depend on the processing

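The direction of all 9 genes held under every alternative run, and 7000 genes were called over the whole table as deposited (83.3% of them higher), against 3818 after median-of-ratios scaling (38.0% higher), 3798 after quantile normalization (50.4% higher), 4282 with no filter on low values, and 1472 to 5686 with a library left out. The number of the 9 genes called was 2 after median-of-ratios scaling, 2 after quantile normalization, 5 with no filter, and 0 to 8 with a library left out. The shares of all genes tested that were called higher in these settings were 6.50%, 8.52%, 8.01%, and 4.63% to 20.8%. After median-of-ratios scaling the calls of Epcam (log2 fold change 1.32), Cdh2 (0.15), Cdh6 (0.90), Cdh16 (1.04), Ctnnb1 (0.17), Ctnnd1 (0.30) and Jup (0.072) were lost. After quantile normalization those of Epcam (1.59), Cdh2 (0.38), Cdh6 (1.20), Cdh16 (0.98), Ctnnb1 (0.60), Ctnnd1 (0.43) and Jup (0.25) were lost. With no filter, where 43310 genes were tested, Epcam (1.78), Cdh6 (1.37), Cdh16 (1.38) and Ctnnb1 (0.63) were lost with unchanged values. eBayes without trend lost Cdh6 (1.37), Cdh16 (1.38) and Ctnnb1 (0.63), and a pseudocount of 0.1 lost Cdh16 (1.81). The causes of these losses were not tested. With a library left out, log2 fold changes ranged from 1.21 to 2.104 for Epcam, 1.02 to 1.47 for Cdh1, 0.51 to 0.71 for Cdh2, 0.85 to 1.71 for Cdh6, 0.88 to 1.68 for Cdh16, 0.76 to 1.06 for Ctnna1, 0.48 to 0.71 for Ctnnb1, 0.64 to 0.86 for Ctnnd1 and 0.44 to 0.62 for Jup. The difference of Epcam relative to the cholangiocyte markers ranged from -0.048 to 0.16 and turned negative without E16.5 replicate C, and that of Cdh1 ranged from -0.49 to -0.24. With all listed cadherins in the sum, Cdh1 made up 39.6% of it at the earlier and 48.9% at the later stage. With the replicate letter as a replicate block, 7314 genes were called and Cdh16 lost its call (1.38, limma adjusted p = 0.0538), and no other call among the 9 genes changed. Same-letter correlations of the deviations from the stage means were -0.04 for A, 0.08 for B and 0.14 for C, and the letters were therefore not treated as pairs. limma voom on recovered reads called 8 of the 8 genes with reads, beside 20.5% of all genes tested that were higher. Of the genes with reads, Cdh16 had the fewest, with 19 in E16.5 replicate C, a library of 23457078 reads.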
